A study of Rattus norvegicus with 6 samples.

Results

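The NRF2 pathway is a main defence of cells against oxidative stress, and 7 of its genes and associated antioxidant enzymes were followed here among 31998 gene identifiers counted by RNA sequencing. They were listed by identifier as Nfe2l2 (ENSRNOG00000001548), Hmox1 (ENSRNOG00000014117), Nqo1 (ENSRNOG00000012772), Gclc (ENSRNOG00000006302), Cat (ENSRNOG00000008364), Sod1 (ENSRNOG00000002115) and Sod2 (ENSRNOG00000019048). The deposited table holds identifiers without names, so the pairing of identifier and symbol is that of the list that defined the set, and no table used here could check it. All 7 genes were in the table and passed the filter on low counts, which left 13938 genes for testing.

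The samples were primary hippocampal neuron cultures of embryonic day 17 rats of the outbred Wistar strain, grown for 12 days in vitro, with cytosine arabinoside at 10 µM added on day 3 against dividing non-neuronal cells. 3 cultures received palmitic acid, a saturated fatty acid, at 200 µM on an albumin carrier, and 3 received vehicle. The specimen labels 1, 4 and 5 occur once per treatment, so every palmitic acid library has a vehicle partner from its own specimen. The labels do not say how many embryos make up a specimen, nor do the sources used here give the length of exposure. Library totals ran from 15875411 to 18241773 counts. Both specimen 4 libraries lay far from the rest in a principal component analysis of log2 expression (first component, 79.5% of the variance), and each result is therefore also given by specimen. Marker genes for neurons and for other brain cells could not be read, because the identifiers are unpaired with names, so the labelled cell type was not checked and the part of cell composition in the results was not tested. In such bulk RNA, fewer cells of a type and less RNA per cell cannot be told apart.

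Nfe2l2 encodes NRF2, a transcription factor that is held in the cytoplasm and degraded with the help of KEAP1 until oxidants or electrophiles stabilise it. It then enters the nucleus, pairs with small MAF proteins and binds antioxidant response elements near its targets. Because this control acts largely on the protein, the level of Nfe2l2 mRNA is not a direct measure of the activity of the pathway. Among the targets, Hmox1 encodes haem oxygenase 1, which breaks down haem and is strongly inducible, Nqo1 encodes a quinone reductase, and Gclc encodes the catalytic subunit of the enzyme that limits glutathione synthesis. Cat encodes catalase, which removes hydrogen peroxide in peroxisomes. Sod1 and Sod2 encode the cytosolic copper-zinc and the mitochondrial manganese superoxide dismutases. In brain the pathway is known to be more active in astrocytes than in neurons.

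Upstream sequences were in the RefSeq promoter table (rat build GRCr8) for 6 of the 7 genes, matched by symbol: Nfe2l2, Nqo1, Gclc, Cat, Sod1 and Sod2. The 250 bases before the annotated gene start are printed for Nfe2l2, Nqo1 and Sod1. Nfe2l2 and Nqo1 were over 10-fold lower in specimen 4 than in specimens 1 and 5, and the level of Sod1 varied little. Capitals mark matches on either strand to 3 common promoter motifs. The first is the GC box, spelled GGGCGG, a site of Sp-family factors. The next is the CCAAT box, named by its letters and bound by NF-Y. The last is the TATA box, spelled TATAAA, which helps to place the start of transcription. The windows are chr3:81029000-81029249 (minus strand) for Nfe2l2, chr19:52220268-52220517 (minus strand) for Nqo1 and chr11:42942573-42942822 (plus strand) for Sod1, each printed in the direction of the gene.
Nfe2l2: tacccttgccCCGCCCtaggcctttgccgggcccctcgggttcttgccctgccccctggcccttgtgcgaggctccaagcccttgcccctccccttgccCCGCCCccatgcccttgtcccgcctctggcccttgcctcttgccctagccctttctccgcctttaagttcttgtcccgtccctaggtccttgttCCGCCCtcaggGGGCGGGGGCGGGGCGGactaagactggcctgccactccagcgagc
Nqo1: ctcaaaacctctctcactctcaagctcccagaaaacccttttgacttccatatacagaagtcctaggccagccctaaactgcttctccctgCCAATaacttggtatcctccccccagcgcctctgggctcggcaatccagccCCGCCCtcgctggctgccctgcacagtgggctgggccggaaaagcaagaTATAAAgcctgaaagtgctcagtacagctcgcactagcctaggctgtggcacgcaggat
Sod1: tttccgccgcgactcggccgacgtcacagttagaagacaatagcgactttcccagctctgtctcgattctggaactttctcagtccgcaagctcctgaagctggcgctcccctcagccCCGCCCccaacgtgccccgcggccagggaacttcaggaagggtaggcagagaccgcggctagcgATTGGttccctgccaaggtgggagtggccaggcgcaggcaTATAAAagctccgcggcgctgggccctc

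The Nfe2l2 window held 6 GC box matches, of which the last 2 overlap by 1 base, and neither a TATA nor a CCAAT box. The Nqo1 and Sod1 windows each held 1 match to each of the 3 motifs. The TATA box of Sod1 began 28 bases before the annotated start and that of Nqo1 59 bases before it. Of 33469 windows of this length, 30.5% held a GC box, 34% a CCAAT box and 12.9% a TATA box. The core of the antioxidant response element (TGACNNNGC, either strand) occurred in 10.1% of windows and in 1 of the 6 windows here, that of Sod2, starting 35 bases before the start. GC content was 69.2% for Nfe2l2, 56.4% for Nqo1, 74.8% for Gclc, 58.8% for Cat, 63.2% for Sod1 and 71.6% for Sod2, against a median of 51.2% over all windows. Matches describe these letters only, and sequence farther upstream was not searched.

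Specimen outweighed treatment in these data at large, with 78.8% against 3.9% of the variance of log2 CPM in the median tested gene. For 5 of the 7 genes the specimen share was higher still, at 96.3% to 99.5%. Nfe2l2, Hmox1 and Nqo1 were well detected in specimens 1 and 5 and over 10-fold lower in specimen 4, at 0.26 to 2.1 CPM. Gclc and Cat were 2- to 5-fold lower in specimen 4, and Sod1 and Sod2 had no specimen difference that passed the test. With palmitic acid, no gene passed the test after adjustment, and 1 of the 7, Hmox1, had a higher level with palmitic acid in all 3 specimens, as did 15.7% of all tested genes.

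**Figure D1:**
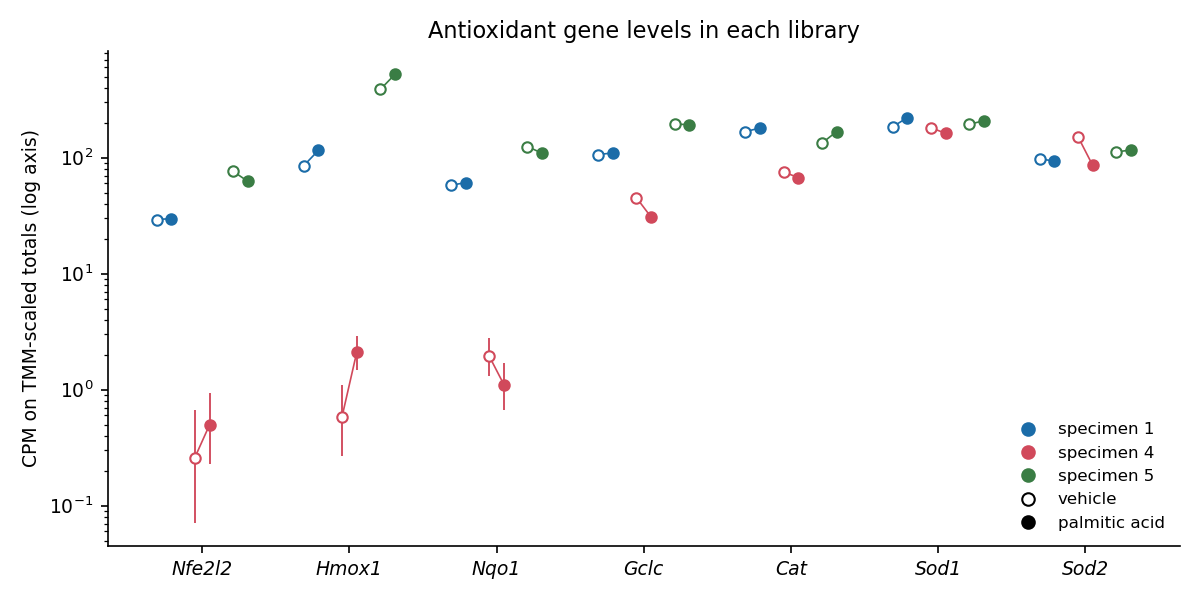
Level of each gene in each library, in CPM on TMM-scaled totals, on a log axis, with open circles for vehicle, filled circles for palmitic acid, 1 colour per specimen, and bars for the exact 95% counting interval. Nfe2l2, Hmox1 and Nqo1 lie at 0.26 to 2.1 CPM in specimen 4 and at 29.3 to 524.3 CPM in specimens 1 and 5, whereas Sod1 lies between 162.7 and 221.5 CPM throughout.

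Nfe2l2, the gene of the transcription factor itself, gave 489 reads in specimen 1, 4 in specimen 4 and 1334 in specimen 5 under vehicle, and 523, 9 and 1144 under palmitic acid. In counts per 1000000 (CPM, on totals scaled by edgeR's TMM method) these are 29.3, 0.26 and 76.4 with vehicle and 29.9, 0.498 and 62.6 with palmitic acid. Both specimen 4 libraries were thus far below all others, and specimen 5 was above specimen 1 under both treatments. Fitted together with treatment, the quasi-likelihood test of edgeR (p adjusted by Benjamini-Hochberg over the 13938 genes, here and below) put Nfe2l2 lower in specimen 4 than in specimen 1 by a log2 fold change of -6.23 ± 0.30 (SE), 75-fold, adjusted p = 5.32e-05. Counting error alone left the gap between the vehicle libraries of specimens 1 and 4 at 112.9-fold, with an exact 95% interval from 43.8 to 416.2.

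Each specimen entered these tests with 2 libraries, 1 per treatment, so their p-values describe these cultures and not a population of animals. The level in specimen 4 corresponds to 4 and 9 reads, a floor at which the ratio between treatments could not be measured: it was 1.92 for palmitic acid over vehicle, with an exact 95% counting interval from 0.535 to 8.52. Nfe2l2 was among the 144 genes (1.03% of those tested) that reached 10 CPM in every library of specimens 1 and 5 and stayed under 1 CPM in both of specimen 4. The other 6 members did not meet that criterion.

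Hmox1, the haem oxygenase gene, spanned the widest range of the 7, a factor of 897 between its lowest and highest library. It had 1424, 9 and 6767 reads with vehicle in specimens 1, 4 and 5, and 2031, 38 and 9581 with palmitic acid, or 85.4, 0.584 and 387.5 CPM and 115.9, 2.1 and 524.3 CPM. The specimens kept the same order under both treatments, 4 lowest and 5 highest. The log2 fold change of specimen 4 against 1 was -6.24 ± 0.32 (SE), adjusted p = 6.53e-05. Specimen 5 stood above specimen 1 by 2.18 ± 0.24, a 4.53-fold difference with adjusted p = 0.0172, and the ratio was nearly the same in vehicle (4.54) and in palmitic acid (4.52) libraries.

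Nqo1, the quinone reductase gene, had 964, 30 and 2180 reads with vehicle and 1070, 20 and 1995 with palmitic acid in specimens 1, 4 and 5. Its levels were 57.8, 1.95 and 124.8 CPM under vehicle and 61.1, 1.11 and 109.2 CPM under palmitic acid. It followed the order of Nfe2l2 and Hmox1, with specimen 4 lowest and specimen 5 highest. Specimen 4 was lower than specimen 1 by a log2 fold change of -5.31 ± 0.26 (SE), 39.6-fold, adjusted p = 5.32e-05. Specimen 5 exceeded specimen 1 at 0.97 ± 0.19, which missed the threshold (adjusted p = 0.056) and passed it in 5 of 12 alternatives, among them DESeq2 (adjusted p = 0.00184), limma (0.0363) and edgeR without a filter (0.0357).

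Gclc, the glutathione synthesis gene, also followed this order but over a narrower range of 6.33-fold. It stood at 106.5, 45.3 and 194.7 CPM with vehicle in specimens 1, 4 and 5 and at 110, 30.7 and 193.1 CPM with palmitic acid. Specimen 4 was lower than specimen 1 (log2 fold change -1.53 ± 0.19 SE, adjusted p = 0.00186), and specimen 5 was 5.16-fold above specimen 4 (adjusted p = 0.000321). The gap between specimens 5 and 1, 0.84 ± 0.19, missed the threshold (adjusted p = 0.0666) and passed it in 4 of 12 alternatives, among them DESeq2 (adjusted p = 0.00346). With 556 reads or more in every library, Gclc remained well measured in specimen 4, unlike the preceding 3 genes.

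Catalase transcripts were lower in specimen 4 as well, but in a different order of the other specimens. Cat had 167.9, 75.4 and 133.5 CPM under vehicle and 180.5, 67.3 and 168.1 CPM under palmitic acid in specimens 1, 4 and 5, so specimen 1 was highest. Specimen 4 differed from specimen 1 by a log2 fold change of -1.28 ± 0.17 (SE), adjusted p = 0.00215, and specimen 5 from specimen 4 by 1.07 ± 0.17, adjusted p = 0.00392. Leaving out specimen 5's palmitic acid library ended the second call (0.89, adjusted p = 0.0543). Specimens 5 and 1 did not differ by the test (-0.21 ± 0.16, adjusted p = 0.507).

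The superoxide dismutase genes had no such gap. Sod1 stood at 184.5, 181.1 and 194 CPM under vehicle and 221.5, 162.7 and 208.4 CPM under palmitic acid in specimens 1, 4 and 5, a range of 1.36-fold over all libraries. Sod2 stood at 97.8, 151.5 and 112.1 CPM under vehicle and 93.5, 85.8 and 116.7 CPM under palmitic acid. The vehicle library of specimen 4 was the highest for Sod2 and the palmitic acid library of the same specimen the lowest. The log2 fold change of specimen 4 against 1 was -0.23 ± 0.16 (SE) for Sod1, adjusted p = 0.29, and 0.28 ± 0.23 for Sod2, adjusted p = 0.399. Sod2 against specimen 1 was -0.11 without the vehicle library of specimen 4, and 0.66 with adjusted p = 0.0211 without its palmitic acid library. In these fits specimen 4 has 1 library, which is assumed to vary like those of the other specimens.

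Of the 7 genes, 5 were called for specimen 4 against 1, all of them lower, where 32.5% of tested genes were called and 19.1% were called lower. For specimen 5 against 4, 5 were called, all higher, against 34.7% of genes called and 20.7% called higher. For specimen 5 against 1, 2 were called, Nfe2l2 and Hmox1, both higher, against 2.92% of genes called and 2.25% called higher. The Nfe2l2 call (1.23 ± 0.20, adjusted p = 0.0363) was lost without any 1 of the 4 libraries of specimens 1 and 5: at 1.15 (adjusted p = 0.0813) without specimen 1's vehicle library and 1.3 (adjusted p = 0.103) without its palmitic acid library, and at 0.97 (adjusted p = 0.351) and 1.46 (adjusted p = 0.0881) without those of specimen 5. The Hmox1 call was kept without each of the 6 libraries. Nfe2l2, Hmox1 and Nqo1 were over 10-fold lower in specimen 4 than in both other specimens, as were 4.51% of tested genes. The median log2 fold change of the 7 genes was -1.53 for specimen 4 against 1, where the median of all tested genes was -0.015 and their quartiles were -0.50 and 0.42.

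**Figure D2:**
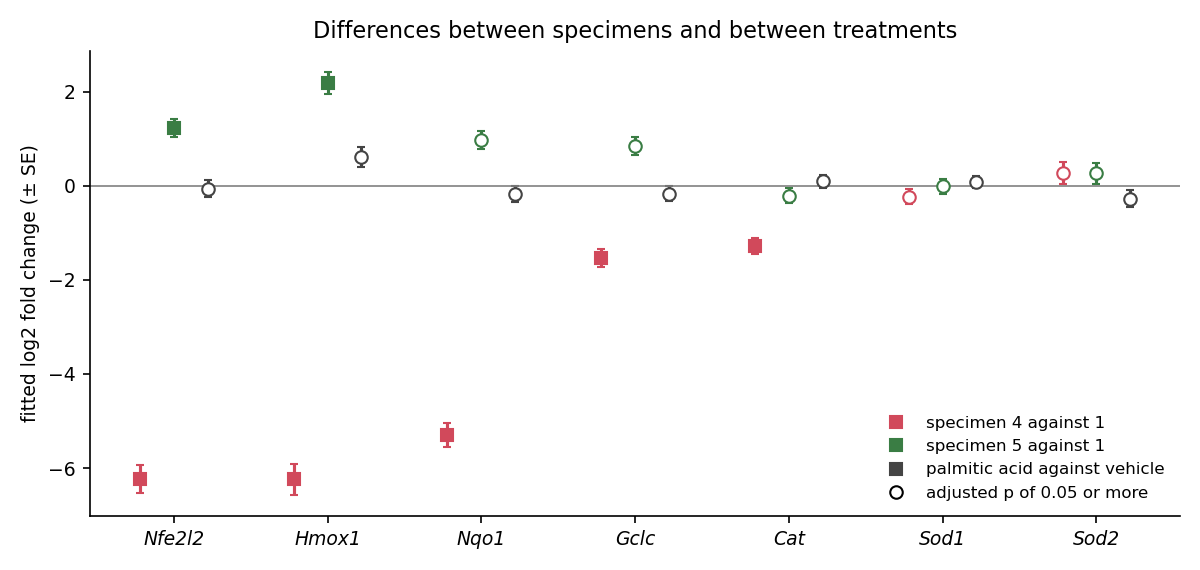
Fitted log2 fold changes (± SE, from 6 libraries) of each gene for specimen 4 against 1, specimen 5 against 1 and palmitic acid against vehicle, with filled squares for an adjusted p under 0.05 and open circles otherwise. Specimen 4 lies at -6.24 to -5.31 for Nfe2l2, Hmox1 and Nqo1, whereas the palmitic acid values lie between -0.28 and 0.60 and are all open.

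Specimen accounted for nearly all of the variance of log2 CPM between libraries for 5 of the genes. Its share was 99.5% for Nfe2l2, 98% for Hmox1, 99.3% for Nqo1, 97.4% for Gclc and 96.3% for Cat, against a median of 78.8% over all tested genes. It was 58% for Sod1 and 20.3% for Sod2. Treatment accounted for 0.0561% (Nfe2l2) to 6.05% (Sod1) in 6 of the genes, and for 26.7% in Sod2, where the median gene had 3.9%. The Sod2 share came from specimen 4, as its values by specimen below show.

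Across the 6 libraries, Nfe2l2 correlated with Hmox1 at Pearson's r = 0.991, with Nqo1 at 0.989 and with Gclc at 0.955 (log2 CPM). The points are 3 pairs of libraries that share a specimen, and specimen 4 sets most of their spread. Over the 4 libraries of specimens 1 and 5 the same pairs had r = 0.946, 0.999 and 0.988. These 4 points are 2 pairs of libraries, so r there mostly restates the difference between specimens 5 and 1. Sod2, for which that difference was not called, reached 0.932 with Nfe2l2 over those 4, against -0.212 over 6. Cat correlated with Nfe2l2 at 0.92 over 6 libraries and at -0.77 over those 4. Sod1 and Sod2 had r = 0.078 with each other over 6 libraries. Such likeness was common in these data: 301 of 13937 other genes correlated with Nfe2l2 above 0.99, and Hmox1, its closest member, ranked 242nd. The 2 closest genes reached r = 0.9999 and 0.9997 for Nfe2l2, 0.9993 and 0.9991 for Hmox1, and 0.9997 and 0.9996 for Nqo1. For Gclc they reached 0.9998 and 0.9987, for Cat 0.9981 and 0.9948, for Sod1 0.9846 and 0.9822, and for Sod2 0.9908 and 0.9885. These closest genes have no name in the tables used here.

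Palmitic acid was compared with vehicle within specimens to ask which of these defence genes respond to the fatty acid. Hmox1 was higher with palmitic acid in 3 of 3 specimens, as were 15.7% of tested genes, so that 1 member of 7 is near the background. The other 6 genes had ratios on both sides of 1 across specimens, and none of the 7 passed the test. In edgeR's quasi-likelihood test with the specimen as a block, 0 of the 7 genes were called at an adjusted p under 0.05, as were 0% of tested genes (the smallest adjusted p of any gene was 0.279). Hmox1 was the 1 member with an unadjusted p under 0.05, a level reached by 3.54% of tested genes. The DESeq2 and limma fits also called 0 of the 7. The treatment groups overlapped at all 7 genes, while 3.32% of tested genes had groups that did not overlap. For Nfe2l2, Hmox1, Nqo1, Gclc and Cat the gaps between specimens make such overlap follow, so it does not measure change within a specimen. The median log2 fold change was -0.061 for the 7 genes and -0.004 for all tested genes.

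Hmox1 had a log2 fold change of 0.60 ± 0.21 (SE), or 1.52-fold, with unadjusted p = 0.0282 and adjusted p = 0.938. Its mean over specimens was 157.8 CPM (SD 203.4, n = 3) under vehicle and 214.1 CPM (SD 274.6, n = 3) under palmitic acid, and the SD reflects the specimens. Within specimens the ratio was 1.36 in specimen 1 (exact 95% counting interval 1.27 to 1.45), 1.35 in specimen 5 (1.31 to 1.4) and 3.6 in specimen 4 (1.71 to 8.46). The ratios of specimens 1 and 5 were close to each other, although specimen 5 held 4.5 times the Hmox1 level, and the specimen 4 ratio rests on 9 and 38 reads. All 3 intervals exclude 1, but they cover counting error only, since each specimen has 1 culture per treatment.

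Without specimen 4 the paired log2 fold change of Hmox1 was 0.44 (adjusted p = 0.667). Over the 11 alternative fits it ran from 0.42 to 0.81, with adjusted p from 0.667 to 1. An exact two-sided sign-flip permutation test over the 3 pairs gave p = 0.25, the smallest it can give with 3 pairs. Among genes with at least 100 reads in both libraries of a specimen, 1.8% of 10551 had a ratio as high as Hmox1 in specimen 1, and 1.32% of 10875 in specimen 5.

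**Figure D3:**
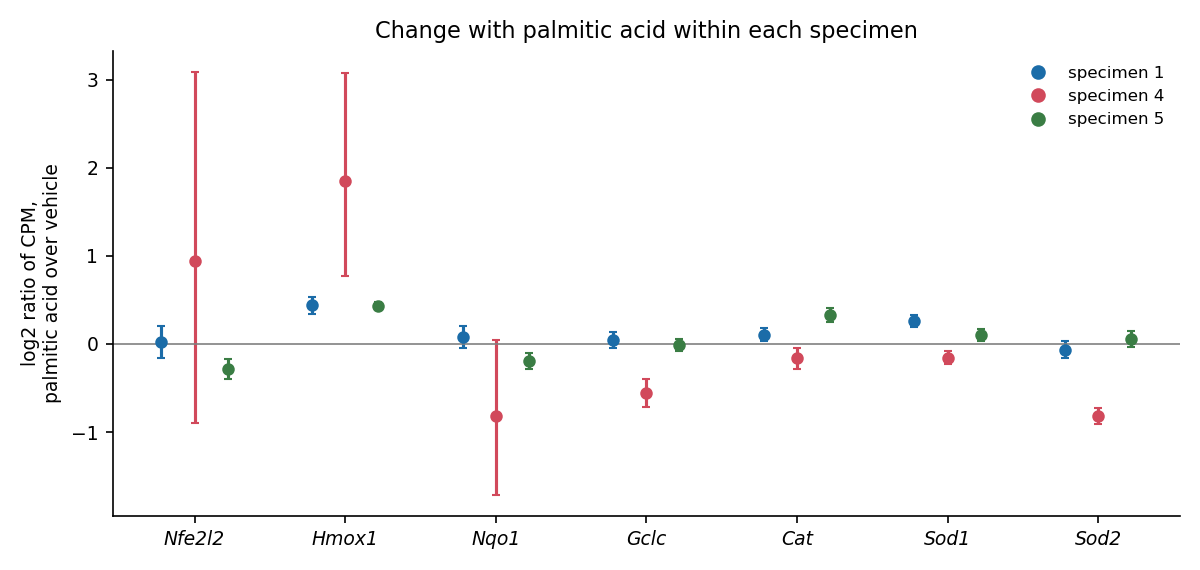
Log2 ratio of CPM, palmitic acid over vehicle, for each gene within specimens 1, 4 and 5, with the exact 95% counting interval of each ratio. Hmox1 lies above 0 in all 3 specimens (0.44, 1.85 and 0.44), and Gclc and Sod2 lie clearly below 0 in specimen 4 alone (-0.56 and -0.82).

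The Nfe2l2 ratio was 1.02 in specimen 1 (counting interval 0.898 to 1.15), 0.82 in specimen 5 (0.757 to 0.888) and 1.92 in specimen 4 (0.535 to 8.52). The mean of its 3 log2 ratios was 0.23, while the fitted log2 fold change was -0.061 ± 0.19 (SE), adjusted p = 0.977. The Nqo1 ratio was 1.06 in specimen 1 (0.967 to 1.15), 0.875 in specimen 5 (0.823 to 0.93) and 0.568 in specimen 4 (0.306 to 1.03), with a fitted -0.18 ± 0.18, adjusted p = 0.938. Both genes were near equal between treatments in specimen 1 and had fewer reads with palmitic acid in specimen 5. Without specimen 5 the Nfe2l2 value was 0.18 (adjusted p = 1), so its sign rested on that pair.

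Hmox1 reads per Nfe2l2 read restate these values in each library, as a quantity in which gene length and library scaling cancel when libraries are compared. It was 2.91 with vehicle and 3.88 with palmitic acid in specimen 1, and 5.07 and 8.38 in specimen 5, with exact 95% intervals that do not overlap in either specimen. The higher value in specimen 5 went with more Hmox1 reads (6767 to 9581) and also with fewer Nfe2l2 reads (1334 to 1144). It is therefore not the change of Hmox1 alone. In specimen 4 the ratio was 2.25 (0.628 to 10) and 4.22 (2.01 to 9.93), intervals too wide to separate. Nqo1 reads per Nfe2l2 read were 1.97 with vehicle and 2.05 with palmitic acid in specimen 1, and 1.63 and 1.74 in specimen 5, with overlapping intervals in each. In specimen 4 they were 7.5 (2.64 to 29.3) with vehicle and 2.22 (0.967 to 5.54) with palmitic acid, again with overlapping intervals. These intervals cover counting error only, and with 1 culture per treatment in a specimen they do not tie a difference to treatment.

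Gclc, the gene of glutathione synthesis, was level between treatments in specimens 1 and 5, at ratios of 1.03 (0.969 to 1.1) and 0.992 (0.946 to 1.04). In specimen 4 it was 0.679 (0.607 to 0.761), and 7.29% of 9927 genes with at least 100 reads in both libraries were as low. The fitted log2 fold change over all specimens was -0.17 ± 0.15 (SE), adjusted p = 0.938, and 0.018 without specimen 4. The negative sign of the fit therefore rested on specimen 4.

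Cat and Sod1 had scaled levels that were higher under palmitic acid in specimens 1 and 5 and lower in specimen 4, where their raw reads were higher (1162 to 1218 for Cat and 2790 to 2942 for Sod1) in a larger library. The Cat ratio was 1.08 (1.02 to 1.13) in specimen 1, 1.26 (1.19 to 1.33) in specimen 5 and 0.893 (0.823 to 0.968) in specimen 4. The Sod1 ratio was 1.2 (1.15 to 1.26), 1.07 (1.03 to 1.13) and 0.898 (0.852 to 0.946) in the same order. On library totals without TMM the Cat interval in specimen 4 included 1 (0.867 to 1.02). The fitted log2 fold changes were 0.093 ± 0.13 (SE) for Cat and 0.071 ± 0.13 for Sod1, with adjusted p = 0.949 and 0.957. They were 0.22 and 0.18 without specimen 4, still short of the threshold (adjusted p = 0.867 for both).

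Sod2, the mitochondrial enzyme gene, showed the largest negative value of the 7, and it came from 1 specimen. The reads went from 2333 with vehicle to 1551 with palmitic acid in specimen 4, a ratio of 0.566 (0.531 to 0.604), and 2.06% of the 9927 genes there were as low. The ratio was 0.956 (0.892 to 1.03) in specimen 1 and 1.04 (0.978 to 1.11) in specimen 5. The fit over all specimens gave a log2 fold change of -0.28 ± 0.19 (SE), adjusted p = 0.938, against -0.003 without specimen 4. Log2 ratios varied more in specimen 4 than elsewhere, with an SD over these genes of 0.46, against 0.30 in specimen 1 and 0.19 in specimen 5. Whether the specimens differ in their response was not tested, because each has 1 library per treatment.

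**Figure D4:**
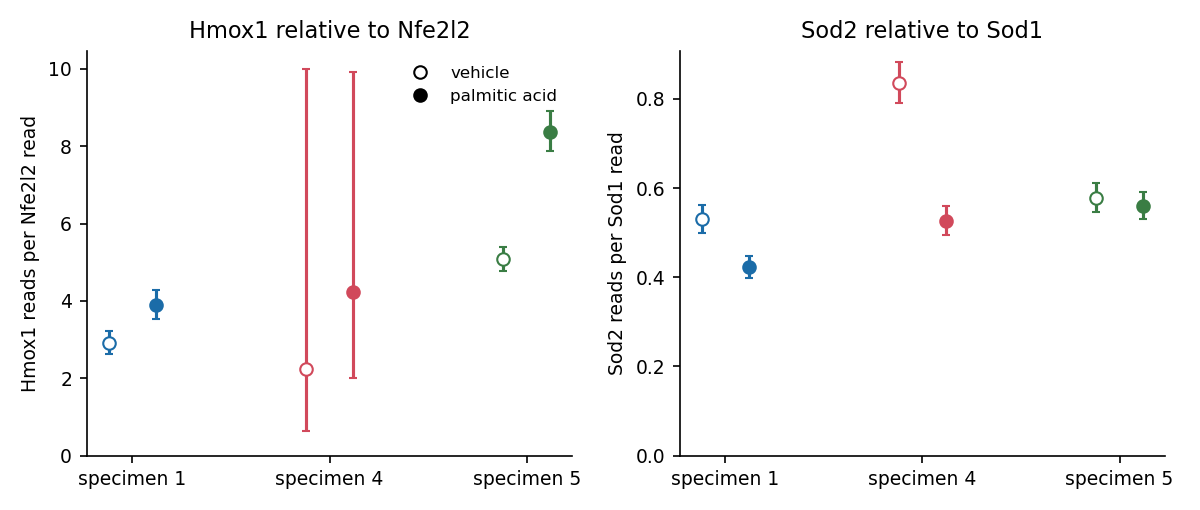
Hmox1 reads per Nfe2l2 read (left) and Sod2 reads per Sod1 read (right) in each library, with open circles for vehicle, filled circles for palmitic acid and exact 95% counting intervals. The left ratio is higher with palmitic acid in specimens 1 and 5 (2.91 to 3.88 and 5.07 to 8.38), and the right ratio stands highest in the vehicle library of specimen 4 (0.836).

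Within the pair of dismutases, Sod2 reads per Sod1 read were 0.53 with vehicle and 0.422 with palmitic acid in specimen 1, 0.836 and 0.527 in specimen 4, and 0.578 and 0.56 in specimen 5. The point value was lower with palmitic acid in each specimen, and the counting intervals of the treatments overlapped in specimen 5. Several such ratios were computed, and the share of gene pairs that keep 1 direction in this way was not counted. In specimen 1 the lower ratio went with more Sod1 reads (3076 to 3881) at nearly equal Sod2 reads (1631 and 1639), whereas in specimen 4 it went with fewer Sod2 reads. RefSeq lists a pseudogene named for Sod2 (Sod2-ps1), a long non-coding RNA gene that overlaps Hmox1 and a pseudogene that overlaps Cat. The sources used here do not say how reads shared with such neighbours were counted, so the levels of these 3 genes carry that uncertainty. Pseudogenes elsewhere in the genome under other names were not looked for, so the remaining genes were not cleared of it.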

How the data were processed

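A stranded kit for mRNA was used on 500 ng of RNA per library, per the labels' protocols, although the design text speaks of rRNA depletion and of 2 cultures per treatment. The labels and the table hold 3, which were used. The authors deposited raw read counts per Ensembl rat gene identifier. The tools named, with no role, were featureCounts, edgeR, DESeq2, STAR 2.7.1a, Trimmomatic 0.39 and Salmon 0.14.1, per the submitters' processing notes. The sources used here do not give the counting tool, strand setting, build or annotation. The RefSeq table (GRCr8, 47357 genes) matched 0 identifiers, so a wider pathway list and cell type marker lists, written as symbols, could not be tested.

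Counts were fitted in R 4.3.3 with edgeR 4.0.16 (quasi-likelihood F test, filterByExpr at a minimum count of 10, TMM scaling, terms specimen and treatment, 6 libraries). P-values were adjusted by Benjamini-Hochberg over 13938 genes at a threshold of 0.05. The SE is the log2 fold change divided by the square root of F. CPM uses TMM-scaled totals, and correlations and variance shares use log2 CPM with a prior count of 2. Counting intervals are exact at 95% (Poisson for a level, Clopper-Pearson for a ratio) and cover counting error only. Alternatives were DESeq2 1.42.0, limma 3.58.1 with voom, other scalings and filters, no block, and leaving out specimens or libraries. The fits were tested on simulated data.

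The specimen label pairs the libraries. Across genes, the paired libraries' departures from their group means had correlations of 0.771, 0.89 and 0.855. All 7 members were named, and the closest genes were the 2 with the highest r for each. The members and lists were chosen with earlier results of these data known. Leaving out single libraries in the specimen comparisons, and the sign-flip test under other scalings, were added after seeing the data. P-values of the main fit rest on the spread left after specimen and treatment (2 residual degrees of freedom per gene). edgeR moderates that spread with information shared across all tested genes, so a p-value does not rest on the gene's own spread alone. Nor does it rest on the spread between specimens.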

Additional observations from a re-analysis of the deposited data

How the results depend on the processing

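For palmitic acid against vehicle, 0 of the 7 genes were called under each of the 11 alternatives. The main edgeR fit, with the specimen as a replicate block, called 0 of all genes, and without the block edgeR and DESeq2 also called 0. Blocked DESeq2 called 6 genes, edgeR without a filter 3, and the fits without 1 specimen 4 to 6. Leaving out a specimen in turn moved the log2 fold change through 0 for Nfe2l2 (-0.137 to 0.179), Gclc (-0.278 to 0.018), Cat (-0.053 to 0.219) and Sod1 (-0.027 to 0.184), none of them called. Hmox1 kept its direction in the 11 alternatives, as its values in the 3 specimens already fix.

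For specimen 4 against 1, the genes called ran from 2663 to 5852 without 1 library, and for specimen 5 against 4 from 2463 to 5657. For specimen 5 against 1, DESeq2 called 877 genes and 4 of the 7 members, edgeR without a filter 691 and 4, and fits without 1 library 102 to 1475 and 1 to 4. Nqo1 and Gclc were the members gained in DESeq2 and without a filter. A specimen left with 1 library is assumed to vary like the others. Near-zero differences changed sign. Sod1 for specimen 5 against 1 was 0.004 in DESeq2, with DESeq2 size factors and without a filter, and -0.151 to 0.138 without 1 library. Sod2 for specimen 5 against 4 was 0.004 in limma, 0.001 without a filter and -0.428 to 0.393 without 1 library. Sod2 ran from -0.111 to 0.661 for specimen 4 against 1 and from -0.004 to 0.484 for 5 against 1. The cause of these shifts was not tested. Other scalings moved log2 ratios within a specimen by at most 0.075. Low read numbers limit Nfe2l2, Hmox1 and Nqo1 in specimen 4, at 4 to 38 reads, although its libraries were about as deep as the others.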
